A study of Arabidopsis thaliana with 8 samples.

Results

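The MADS-box flowering genes SOC1, AGL24, AP1, FUL, FLC, FLM and SVP were followed in a chromatin immunoprecipitation sequencing (ChIP-seq) experiment on CONSTANS (CO) in Arabidopsis thaliana. They were listed by locus identifier, as 7 of the 27444 nuclear protein-coding genes, with earlier results of these data known; the rule itself sets no limit on a measured value. A peak was assigned to a gene when its summit, the base with the highest signal, fell between 3000 bp before one end of the annotation and 3000 bp past the other. CO was precipitated with an anti-CO antibody from whole 35S:CO and co-10 seedlings, both grown in long days and harvested at an age of 7 days. The 35S:CO line carries the CO coding sequence behind a viral promoter that is active in most plant tissues and not only in the cells that normally make CO, and it was used to raise the amount of CO protein. The co-10 line is a co mutant and served as the control for signal that does not depend on CO. No wild-type seedlings are among the 8 samples, which are 2 immunoprecipitates and 2 inputs per genotype.

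CO is a B-box protein with a CCT domain that binds DNA together with nuclear factor Y subunits and raises transcription of FT, the mobile florigen, in the leaf on long days. MADS-box proteins bind CArG boxes as dimers and carry the flowering signal on at the shoot apex or hold it back. SOC1 and AGL24 promote flowering, FUL and AP1 promote it and give the new meristem its floral identity, and FLC, FLM and SVP repress it. FLC and SVP bind FT and SOC1 and keep them low, FLC in plants that have not been through winter cold, while FLM works with SVP in the response to ambient temperature.

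The values are those of 3 peak lists that the authors deposited, 1 for 35S:CO with 3287 nuclear peaks, 1 for co-10 with 312, and a filtered list with 3210. All 3214 peaks of the filtered list, organellar ones included, stood in the 35S:CO list with the same position and fold enrichment. The replicates were taken as pooled, because there is 1 list per genotype and the word "both" stands in its peak names. No value below therefore has a replicate error, no test between samples was run, and depth per sample is unknown. The only p-values computed here are Poisson values for recovered pileups, or for pileups scaled to co-10. The strength of a peak is the fold enrichment over local background at its summit, the authors' own value. The number of fragments over the summit (pileup) and the number expected there (background) were recovered from the fold enrichment and the deposited p-value. The gene table gives no strand, so the sides of a gene are called lower and upper by chromosome coordinate, and upstream and downstream are not told apart.

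Of the 7 genes, 4 had a filtered summit within that distance, namely SOC1, FUL, FLM and SVP. Over all nuclear protein-coding genes the same rule gave 19.2%, and over the 5107 genes in the length range of the members, 3210 to 6067 bp, it gave 21.7%. The 3 genes with no such summit were AGL24, AP1 and FLC. The 35S:CO list gave the same 4 genes, beside 19.3% of all genes, and all 7 summits it placed there were also in the filtered list. In the co-10 list none of the 7 genes had a summit within 3000 bp, beside 0.619% of all genes. The 4 genes with summits thus comprised 2 that promote flowering, SOC1 and FUL, and 2 that repress it, SVP and FLM. The summits counted at FUL and FLM lay nearer to other protein-coding genes.

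**Figure D1:**
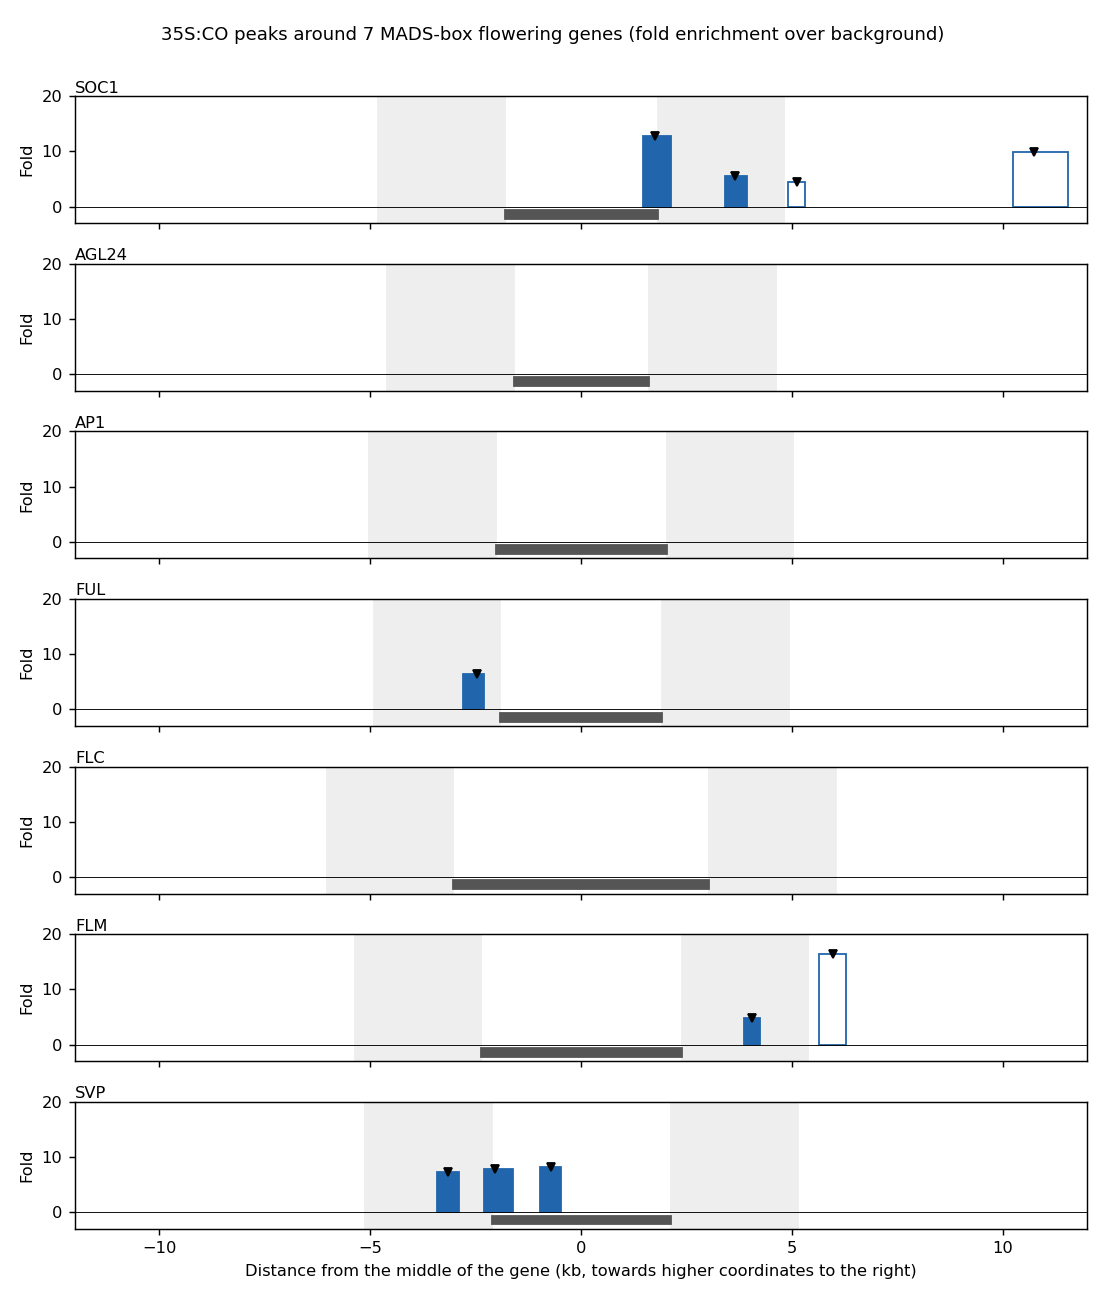
Peaks of the 35S:CO list around each of the 7 genes, with distance from the middle of the gene in kb on the horizontal axis and fold enrichment over background on the vertical axis. Dark boxes are genes, grey bands the 3000 bp flanks, filled bars peaks counted at the gene, open bars peaks whose summit lay beyond the flank, and black triangles summits; SOC1 has 2 filled bars, SVP has 3, FUL and FLM have 1 each, and AGL24, AP1 and FLC have none.

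SOC1 (AT2G45660, listed as AGL20 in RefSeq) is the floral integrator on which the photoperiod, vernalization and gibberellin pathways converge, and it had the strongest peak of the 7 genes. That peak spanned 18810772 to 18811440 on chromosome 2 (build TAIR10) and reached a 12.7-fold enrichment, with a pileup of 62 fragments over a background of 3.96. It ranked 410 of the 3210 nuclear filtered peaks, and its −log10 q in the authors' deposited table was 48.3. Its summit lay inside the gene, 64 bp from the upper end of the 3621 bp annotation, and 354 of its 669 bp were within the gene. The peak thus straddled one end of SOC1.

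A weaker SOC1 peak lay in the intergenic region on the upper side, from 18812720 to 18813254, with its summit 1844 bp from the gene. Its fold enrichment was 5.45, from 23 fragments over a background of 3.41, which equals, to that rounding, the median of 5.45 for all nuclear filtered peaks. This summit was slightly nearer to the next protein-coding gene, AT2G45670, at 1691 bp, and nearer still to the long non-coding RNA gene AT2G09655, at 1263 bp. A further peak just outside the 3000 bp limit had its summit 3314 bp from SOC1 and a fold enrichment of 4.49, and that summit lay inside AT2G09655. At least 2 filtered summits were found at 3.82% of all genes under the 3000 bp rule. The neighbouring MADS-box gene on the lower side, AGL6 (AT2G45650), had no summit within 3000 bp.

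SVP (AT2G22540), a repressor that binds FT and SOC1, had the most summits of the 7 genes. It had 3, and at least 3 filtered summits within 3000 bp were found at 0.663% of all protein-coding genes. The peak on the lower flank spanned 9578354 to 9578871 on chromosome 2 and had a fold enrichment of 7.34, from 36 fragments over a background of 4.04. The middle peak, from 9579464 to 9580150, had a fold enrichment of 7.92, from 30 fragments over 2.92. The third, from 9580788 to 9581294, had a fold enrichment of 8.24, from 38 fragments over 3.74.

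The 3 SVP peaks were alike in strength and ranked 1014, 911 and 859 among the nuclear filtered peaks. They were separate intervals, with summits 1109 and 1316 bp apart and gaps of 592 and 637 bp between the peak edges. The median distance from a nuclear filtered summit to its nearest neighbour was 6452 bp. The middle summit lay 86 bp inside the lower end of SVP, with 504 of the 687 bp of its peak in the gene. The third lay wholly inside, 1402 bp from that end of the 4255 bp gene. The first lay 1023 bp outside SVP and 1008 bp from AT2G22530, the next gene on that side, so distance does not assign it to either gene.

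FUL (AT5G60910, listed as AGL8) acts with AP1 and SOC1 in the change to a flowering meristem and later patterns the fruit. It had 1 peak, from 24501537 to 24502035 on chromosome 5. It reached a 6.49-fold enrichment, with 28 fragments over a background of 3.47. The summit lay 544 bp outside the gene on the lower side and ranked 1243 of 3210. It was nearer to the neighbouring receptor-like kinase gene RLK1 (AT5G60900), 120 bp away, and no part of the peak reached into FUL. The next summit along the chromosome was 23077 bp away, so this peak stood alone, unlike those of SOC1 and SVP.

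FLM (AT1G77080, listed as MAF1), a relative of FLC whose splice forms differ in their repression of flowering with temperature, had the weakest peak of the 4 genes. It covered 28961723 to 28962084 on chromosome 1 at a 4.77-fold enrichment, with 20 fragments over a background of 3.41, and ranked 1941. The summit was 1681 bp outside FLM on the upper side and inside the adjacent gene AT1G77090. It was also the narrowest of the peaks counted, at 362 bp.

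A much stronger peak lay beyond the limit on the same side of FLM. It covered 28963483 to 28964140 at a 16.4-fold enrichment, with 81 fragments over a background of 4.001, and ranked 260. Its summit was 3602 bp from FLM, inside the long non-coding RNA gene AT1G09703, 180 bp from the pseudogene AT1G77095 and 515 bp from AT1G77093. With a flank of 5000 bp it replaced the 4.77 peak as the strongest at FLM. No base of either peak lay in FLM itself.

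AGL24 (AT4G24540) is a partner of SOC1, AP1 (AT1G69120) is a gene that gives young meristems their floral identity, and FLC (AT5G10140) is the vernalization-regulated repressor. None of the 3 had a filtered or 35S:CO summit within 10000 bp. The nearest filtered summit was 13115 bp from AGL24, at a fold enrichment of 3.82 and inside DIC2. For FLC it was 12381 bp away, at 3.34, with SULTR2;1 as its nearest protein-coding gene. For AP1 it was 10619 bp away and strong, at 17.7, with AT1G69150 as its nearest protein-coding gene. A distance above 10000 bp was not unusual, since 58.2% of all protein-coding genes had none nearer and the median was 13251 bp. At the median background of 3.05 fragments for 35S:CO peaks with a background under 10, a pileup of 10 fragments, or a fold enrichment of 2.72, reached the lowest −log10 p of the nuclear list (3.23). The limit varies with the background, and the lowest pileup of a 35S:CO peak with a background under 10 was 5. The background at AGL24, AP1 and FLC is not known. Signal there too weak to be called as a peak was not detectable from these lists.

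**Figure D2:**
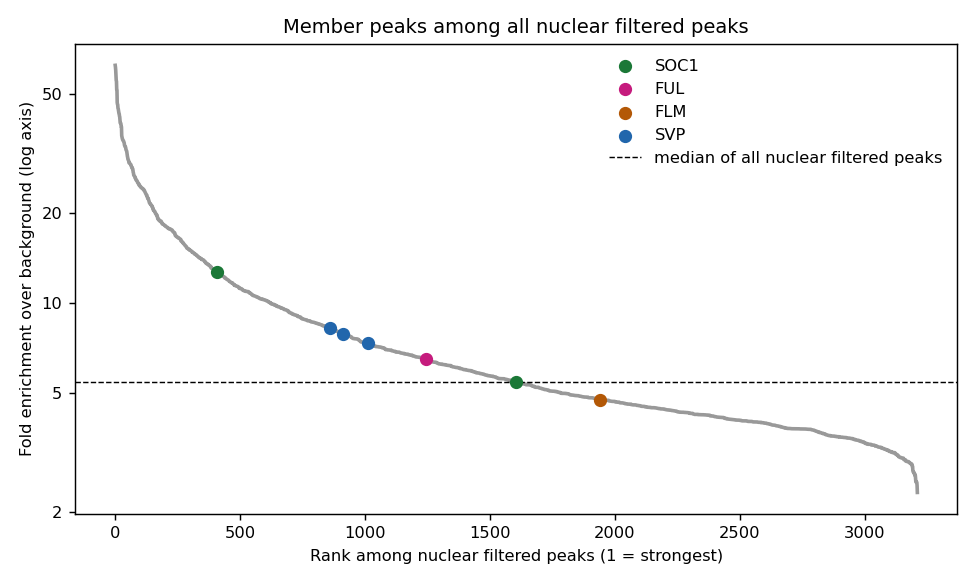
Fold enrichment over background (vertical, log axis) of all 3210 nuclear filtered peaks by rank (horizontal), with the 7 peaks at SOC1, FUL, FLM and SVP as coloured points and the median of the list, 5.45, as a dashed line. The SOC1 peak at 12.7 is the only point above 10, the 3 SVP points sit together between 7.34 and 8.24, and the FLM point at 4.77 is below the median.

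Over the 7 peaks, fold enrichment ran from 4.77 to 12.7, width from 362 to 687 bp and recovered pileup from 20 to 62 fragments. The recovered background was even, from 2.92 to 4.04. The summit was inside the member gene for 3 peaks, at SOC1 and SVP, and outside it for the other 4. Of these, the FLM summit lay inside AT1G77090. Among all nuclear filtered summits, 38.2% lay in a gene. In 6 of the 7 peaks the width exceeded the median of 471 bp for nuclear filtered peaks. Among the 5257 protein-coding genes with a filtered summit within 3000 bp, the strongest peak per gene had a median fold enrichment of 6.15, with an interquartile range of 4.43 to 9.93. SOC1 at 12.7 was above that range, SVP at 8.24 and FUL at 6.49 were in its upper part, and FLM at 4.77 was in its lower part. None of the 7 peaks was near the top of the list, which reached 62.3.

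The number of genes counted depended on how a peak is tied to a gene. With the gene body alone, 2 members had a filtered summit, SOC1 and SVP, beside 4.28% of all genes. With a flank of 1000 bp, FUL joined them and the background was 11.2%. The count reached 4 with FLM, and widening the flank to 5000 bp added no member while the background rose to 26.5%. When a summit was given only to its nearest protein-coding gene, SOC1 kept 1 summit, SVP kept 2, and FUL and FLM kept none, beside 9.39% of all genes. A −log10 q of at least 10 in the authors' deposited table left SOC1, FUL and SVP, beside 10.7% of all genes.

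**Figure D3:**
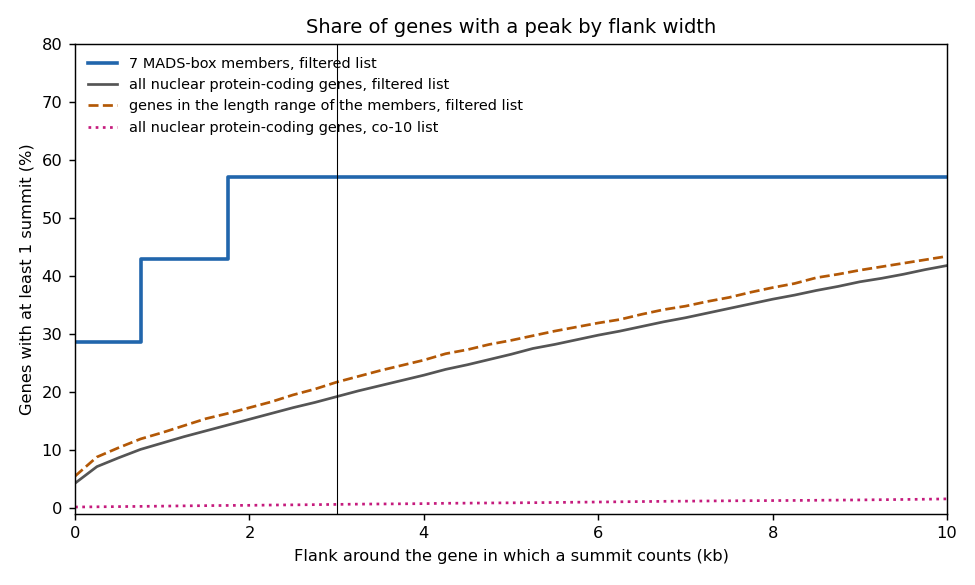
Share of genes with at least 1 summit (vertical, percent) by the width of the flank on each side of the gene (horizontal, kb, computed every 250 bp), for the 7 members, all nuclear protein-coding genes, genes in the length range of the members, and all genes in the co-10 list. The vertical line marks 3 kb, where 57.1% of the members and 19.2% of all genes had a filtered summit; the members' line stays level from there to 10 kb while the line for all genes climbs to 41.8%.

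To see which of this signal remained in the mutant, the 35S:CO peaks were set beside the co-10 list. None of the 7 peaks overlapped a co-10 peak by 1 bp or more. Over all nuclear 35S:CO peaks 2.34% did so (77 of 3287), and of the 3210 nuclear filtered peaks 0 did. All 7 peaks were in the filtered list, so their lack of overlap follows from that membership and is not a separate result. It also sets these 7 peaks apart from few others. The nearest co-10 summit was 73754 bp from FLC, and for the other 6 genes the distances ran from 825372 bp at AGL24 to 4679422 bp at FLM. The co-10 list holds only 312 nuclear peaks. This distance was not computed over all genes, so whether it is unusual at the members was not tested. The recovered background was lower in co-10. At 47 overlapping pairs of nuclear peaks with a background under 10 fragments in both lists, the median ratio of co-10 to 35S:CO background was 0.53. The ratio of the median backgrounds of all nuclear peaks was 0.356, which gives narrower margins than those below. Either ratio only stands in for depth, which is unknown.

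Scaled by the ratio of 0.53, the stronger SOC1 peak would hold 32.9 fragments, where 10 would reach the lowest −log10 p of the nuclear co-10 list (4.28). The FLM peak had the least margin, with 10.6 scaled fragments where 9 were needed. The weaker SOC1 peak came next, with 12.2 where 9 were needed. The scaled −log10 p was 5.99 for FLM, 7.35 for the weaker SOC1 peak and 28.2 for the stronger one. All 7 scaled peaks reached the co-10 minimum. The share of all nuclear filtered peaks that would do so was not computed. Whether the count sets the members apart was therefore not tested. The scaled values are expected ones without counting error. Where the margin is narrow, as at FLM (under 2 fragments) and the weaker SOC1 peak, a peak could still be missed at the co-10 depth. Genotype and efficiency of the immunoprecipitation cannot be told apart in pooled lists. At the scaled backgrounds of the 7 peaks, 8 to 10 fragments were needed to reach the lowest co-10 p. Weaker co-10 signal at these places was not detectable.

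**Figure D4:**
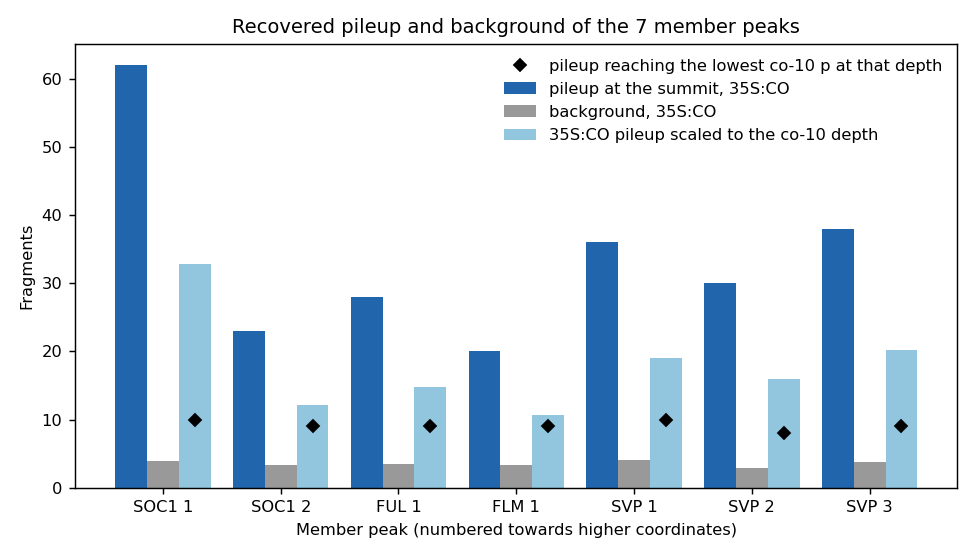
Fragments (vertical) at the summits of the 7 peaks at SOC1, FUL, FLM and SVP (horizontal, numbered towards higher coordinates): the recovered 35S:CO pileup, the recovered 35S:CO background, the pileup scaled to the co-10 depth, and, as diamonds, the pileup that reaches the lowest co-10 p at that depth. Every scaled bar stands above its diamond, by the widest margin at SOC1 (32.9 against 10) and the narrowest at FLM (10.6 against 9).

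Related genes gave a mixed picture beside the 19.2% of all genes. Among 17 other MADS-box genes with roles in flowering time or the shoot and root, 2 had a filtered summit within 3000 bp, and both peaks were weak. These were AGL16, a flowering repressor, with a summit in the gene at a fold enrichment of 3.92, and AGL19, a flowering activator, at 3.09 and 625 bp away. The FLM relatives MAF2, MAF3, MAF4 and MAF5, which lie side by side on chromosome 5, and the AP1 paralogue CAL had none. FLC, FLM and the MAF genes are close paralogues, and whether reads were shared among them was not tested.

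Of 10 floral organ identity genes of the MADS-box family, 3 had a filtered summit. The strongest was at SEP3, a cofactor in the specification of petals, stamens and carpels, at 8.85 and 475 bp from the gene. SEP4 followed at 4.99 and 292 bp, and PISTILLATA (PI), a petal and stamen gene, at 3.89 and 1789 bp. SEP1, SEP2, AP3, AG, SHP1, SHP2 and STK had none.

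Of 11 genes that regulate FLC, 1 had a filtered summit, the RNA-binding protein gene FLK at 4.86 and 1915 bp. FY, an RNA processing factor of the autonomous pathway, was the only gene of the 53 on these lists and the member list with a co-10 summit within 3000 bp, at a fold enrichment of 3.79, and it had no filtered summit. Of 8 genes that act with the members at the shoot apex, 3 had a filtered summit: FT at 10.5 and 134 bp from the gene, its homologue TSF at 4.06 and 1427 bp, and SPL9, a target of miR156, at 3.75 and 30 bp. FD, LFY, TFL1, SPL3 and SPL15 had none. With the 3000 bp flank, SOC1 at 12.7 was the strongest of the 13 genes on all these lists with a filtered summit, followed by FT, SEP3 and SVP. That order depends on the flank: at 5000 bp, AGL15 (23.9) and FLM (16.4) came before SOC1, and AGL6 shared the SOC1 peak.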

How the data were processed

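The authors deposited 3 headerless peak lists in narrowPeak layout. Per the submitters' processing notes, FastQC, Bowtie, MACS2 and deepTools were used and the build was TAIR10; versions and thresholds are not given in the sources used here. The labels give fixation in 1% formaldehyde (20 min) and in 1 mM disuccinimidyl glutarate (10 min). The fold enrichment is a linear ratio, and the −log10 p-value and −log10 q-value of each peak are those the authors deposited; the deposited score is 10 times the −log10 q and was not used. Chromosome positions are counted from 1.

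Pileup and background were solved from fold = (pileup + 1) / (background + 1) and a Poisson p-value, with pileups up to 4999 and a tolerance of 0.001 in −log10 p. This solved 3287 of 3287 nuclear 35S:CO peaks and 311 of 312 co-10 peaks, after a test on simulated data. Those data were made with the same formula, so the test checked the solving and not the formula. All simulated pileups were above the median co-10 pileup of 10. Recovered values depend on the assumed formula, and PCR libraries without molecular identifiers make fragments less than independent.

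Genes came from the RefSeq table of assembly TAIR10.1, in which all 7 members and the 46 genes of 4 other lists were found. Its name differs from that of the peaks' build, so no gene positions are given. Moving the filtered summits in steps of 50 bp, the smoothed share in genes was lowest at -50 bp, where the unsmoothed share was 37.9%, against unsmoothed shares of 59.1% and 58.7% at 5000 bp to either side. Sequence and strand were not used, so the planned motif search was not run. The members and lists were chosen with earlier results of these data known. Named genes are the members, genes at or nearer to their summits, and list genes with a filtered summit; other list genes are named as having none. FY (for its co-10 summit), AGL15 (for its peak at a wider flank) and the genes at the nearest summits of AGL24, AP1 and FLC were added after their values were seen. Peak lists hold no expression, so the tissue could not be checked against marker genes. Python 3.11.15, numpy 2.4.6, pandas 2.3.3 and matplotlib 3.10.9 were used.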

Additional observations from a re-analysis of the deposited data

How the results depend on the processing

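No paired analysis was possible because the lists hold pooled replicates, and for the same reason no replicate could be left out. The members with a summit in the filtered list, and in the 35S:CO list, fell from 4 to 2 with the gene body alone and to 2 with the nearest protein-coding gene, and both rules admit fewer peaks by construction. The filtered summits at members fell from 7 to 4 with a flank of 1000 bp, to 3 with the gene body alone and to 3 with the nearest gene. A −log10 q of at least 10 in the authors' deposited table left 3 members, without FLM. The co-10 count was 0 under every alternative tried, and no member peak had its summit within 100 bp of a co-10 summit, as 1.25% of all nuclear 35S:CO peaks did. A depth scale of 0.356 from all nuclear peaks was an alternative chosen after seeing the data. With it, all 7 member peaks still reached the lowest co-10 p, without counting error. The share over all nuclear filtered peaks was again not computed. FLM had the narrowest margin, at a −log10 p of 4.5 against 4.28, and the weaker SOC1 peak was next, at 5.44. The fold enrichment at FLM moved from 4.77 to 16.4 with a flank of 5000 bp. The other MADS-box flowering genes with a summit went from 2 to 4 at 5000 bp, to 1 in the gene body and to 0 at a −log10 q of at least 5 in that table, where 16.2% of all genes were counted. The floral organ genes went from 3 to 0 in the gene body and to 1 at a −log10 q of at least 10. The regulators of FLC went from 1 to 3 at 5000 bp and to 0 at 1000 bp, in the gene body, with the nearest gene and at a −log10 q of at least 10. The shoot apex genes went from 3 to 0 in the gene body and to 1 at a −log10 q of at least 5 or 10. In all, 48 of 74 alternatives stayed within 1.5 times of the reported value. These are not independent, as they include co-10 counts that stayed at 0 and 35S:CO counts equal to the filtered ones. A fold enrichment was not scored where its gene kept no peak, as at FLM with a flank of 1000 bp.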
